A study of Glycine max with 10 samples.

Results

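The genes described here carry the symbols of enzymes that make flavonoids and isoflavonoids in soybean, and were measured in the shoot apical meristem (SAM) while it was converted into an inflorescence meristem. They were chosen by symbol alone. A probe set (the group of short probes that reports a transcript on the array) was taken if its annotated gene symbol began with PAL, C4H, 4CL, CHS, CHR, CHI, IFS, HID, IFR, F3H, F3'H, FLS, DFR, ANS, ANR, LAR or UGT78. This gave 71 of the 37593 soybean probe sets, which report 36 genes. No F3'H symbol was found, and 1 chitinase that shares the CHI letters was left out. Of the 71, 38 are probe sets whose name carries no mark of shared probes, and the other 33 end in _s_at, _a_at or _x_at, so that closely related gene copies can contribute to their values.

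All plants were of the determinate cultivar Bragg, and no transgene or mutant allele is named for any group. Plants of the 0 short day (SD) group were taken after 10 days in a long-day glasshouse, and those of the 1, 2, 4 and 6 SD groups went on from there to a chamber held at 24°C, where the day lasted 10 h. Each time point had 2 biological replicates on the Affymetrix Soybean GeneChip, 10 arrays in all. Pools of dissected SAMs without leaf primordia were used, but the 6 SD samples held floral meristem tissue in addition to the inflorescence meristem beside it. In comparisons with 0 SD, the effects of short days, the change of growing place and plant age cannot be told apart, and at 6 SD the tissue taken differed too. In such pooled tissue fewer cells of a type and less RNA per cell cannot be told apart either.

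Flavonoid synthesis starts from phenylalanine, which phenylalanine ammonia-lyase (PAL), cinnamate 4-hydroxylase (C4H) and 4-coumarate-CoA ligase (4CL) turn into coumaroyl-CoA, a compound that lignin synthesis uses as well. Chalcone synthase (CHS) joins it to malonyl-CoA, chalcone reductase (CHR) acts with CHS to remove a hydroxyl group, and chalcone isomerase (CHI) closes the ring to a flavanone. In legumes isoflavone synthase (IFS) draws flavanones into isoflavonoids, which are known in soybean seeds and roots for their parts in defence and in signalling to nodule bacteria. The other branch leads by flavanone 3-hydroxylase (F3H) to flavonols, anthocyanins and proanthocyanidins, the pigments and tannins of petals and seed coats.

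The values are log2 intensities, on which a difference of 1 is a doubling. The median of the soybean probe sets lay at 7.31 to 7.46 on the 10 arrays, and the 25th percentile at 5.13 to 5.38. The second 6 SD array stood apart, with an interquartile range of 3.60 against 3.94 to 4.02 on the other arrays. At 6 SD the median log2 change of all tested probe sets against 0 SD was −0.13. Shoot meristem markers were present. STM and KNAT2, homeobox genes of the meristem, had 3 tested probe sets, annotated so in the study, and all 3 rose at 6 SD. The other meristem probe set, that of CLV1A, was not among those tested. It had 6.20 and 5.31 at 6 SD against 5.31 and 5.51 at 0 SD, with no clear rise. The summed level of the 4 meristem probe sets was 12.53 to 12.75 (log2) at 6 SD against 11.15 to 11.27 at 0 SD. The floral markers AP1, FRUITFUL and SEP3 all rose (3 of 3), with a summed level of 12.86 to 13.16 at 6 SD against 6.69 to 6.90 at 0 SD. Of 17 leaf probe sets, 14 were tested and 1 rose, and their summed level was 15.67 to 16.03 at 6 SD against 15.84 to 15.92 at 0 SD. Of 8 peroxidase probe sets that stood for lignifying cells, 7 were tested and 0 changed against 0 SD, while 2 fell at 6 SD against 1 SD. Their summed level was 13.83 to 14.27 at 6 SD against 13.54 to 13.71 at 0 SD, with no overlap, but the brightest probe sets dominate such a sum. One of these, Gma.338.1.S1_at (PRX2B), had 10.95 on the first and 12.35 on the second 6 SD array. The median log2 change of the 7 tested was −0.22, so the list gave no single direction. The part that a change in tissue has in the results below was not tested.

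Tests were run on the probe sets that lay above the array median on 2 or more arrays, 20366 in number and 30 of the 71 here. For the 41 dimmer members any adjusted p comes from a separate fit to all 37593 probe sets. All adjusted p-values are Benjamini-Hochberg values from limma with a threshold of 0.05, and the 4 comparisons with 0 SD share the same 2 arrays.

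At 6 SD some of these genes passed in each direction. IFS2 and CHI4A rose against 0 SD, while IFS1, CHS8, CHR5, CHI1A, CHI2-A and the leucoanthocyanidin reductase gene LAR1 fell. Of the 30 tested probe sets, 2 rose (6.67%, background 3.67%) and 6 fell (20%, background 2.79%). In the fit to all probe sets 2 of the 71 rose (2.82%, background 2.88%) and 10 fell (14.1%, background 1.71%). The share that rose there was near that of all probe sets, and the CHI4A rise came from its dimmer probe set. The falls there added a further CHS8 probe set, DFR2, ANS2 and ANR1. The median log2 change of the 30 was −0.01 against the −0.13 of all tested probe sets. The counts rest on single arrays. Of the 8 changed probe sets, 2 passed without the first 0 SD array, 3 without the second, 5 without either 1 SD array and 3 without the second 6 SD array, and IFS1 and IFS2 were among them in every case. With array weights 2 passed, and CHS8 (Gma.4300.3.S1_s_at), CHR5, CHI1A, CHI2-A, CHI4A, LAR1 and ANR1 each lost the call. The highest adjusted p given for a gene below covers all its alternatives, array weights included.

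**Figure D1:**
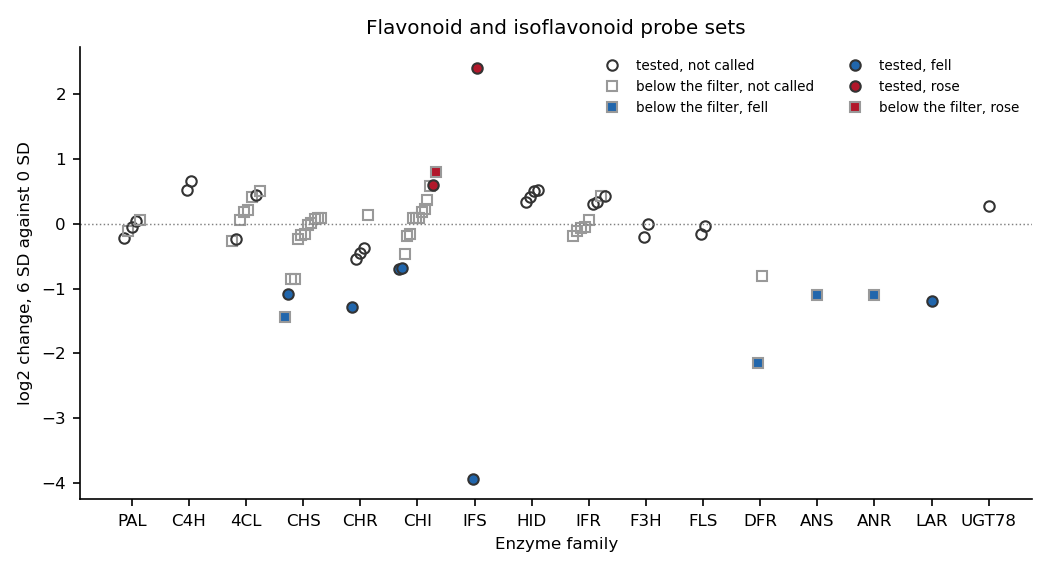
log2 change at 6 SD against 0 SD of each of the 71 probe sets, grouped by enzyme family. Circles are the 30 tested probe sets and squares the 41 below the filter, filled red where the probe set rose and blue where it fell (adjusted p under 0.05, for squares from the fit to all probe sets). IFS1 lies at −3.93 and IFS2 at 2.41.

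Few of these genes passed against 0 SD before 6 SD, when few of all tested probe sets passed either. Not passing does not show that a gene was unchanged. At 1 SD 0 of the 30 passed (background 0.167%) and 5 had an unadjusted p under 0.05, all lower than at 0 SD. At 2 SD 0 passed (background 0.137%) and 7 had such a p, again all lower. At 4 SD 1 passed, IFS2 (background 0.0687%), and 6 had such a p. Between neighbouring times, 0 of the 30 passed at 4 SD against 2 SD (background 0.00982%), with 9 at an unadjusted p under 0.05. At 6 SD against 4 SD 1 passed, again IFS2 (background 0.491%). The share of all tested probe sets with an unadjusted p under 0.05 was not counted. The unadjusted counts therefore have no background and are not read as a result about these genes. A cubic trend over the number of short days passed for 7 of the 30 (background 4.3%), namely CHI1A, CHI2-A, CHI4A, IFS1, IFS2, IFR2 and LAR1.

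**Figure D2:**
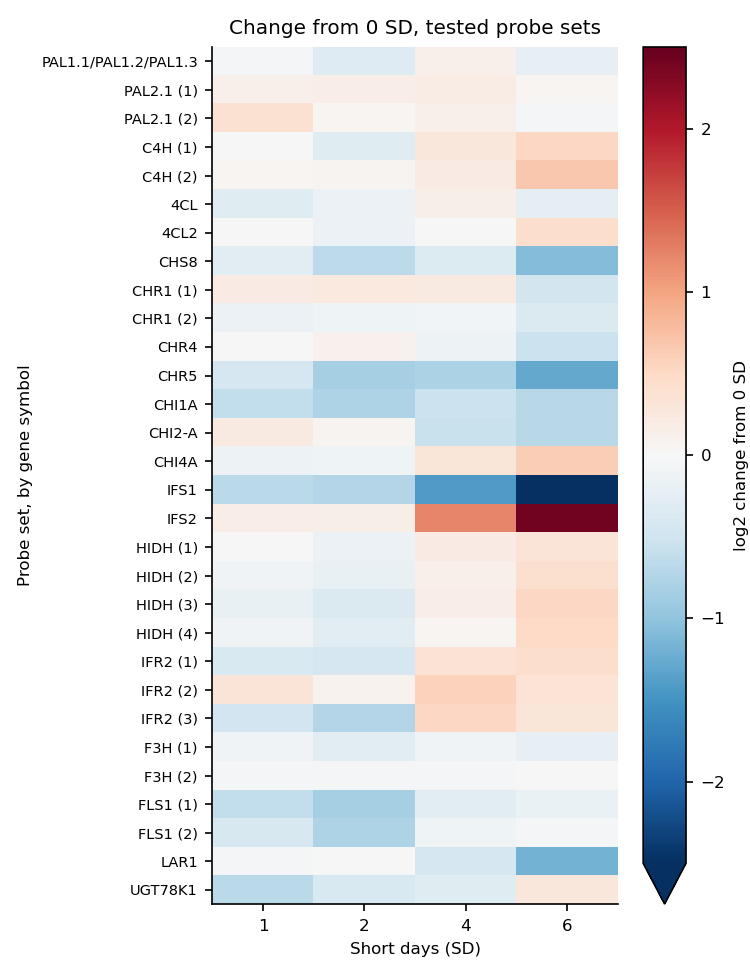
Mean log2 change from 0 SD at 1, 2, 4 and 6 SD (columns) of the 30 tested probe sets (rows, in pathway order), red where higher and blue where lower than at 0 SD. IFS1 at 6 SD, at −3.93, lies beyond the end of the scale, and numbers in brackets tell apart probe sets of the same gene.

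The 2 isoflavone synthase genes moved in opposite directions. Both encode the cytochrome P450 that moves the aryl ring of a flavanone and so commits it to the isoflavonoid branch. IFS1 (probe set Gma.4206.1.S1_s_at) had log2 values of 8.90 and 8.08 (0 SD), 7.88 and 7.75 (1 SD), 7.48 and 8.04 (2 SD), 7.74 and 6.42 (4 SD) and 4.64 and 4.48 (6 SD). The 6 SD arrays lay below all 8 others and under the 25th percentile of their arrays, while the 4 SD arrays were far apart from each other, the first of them lying within the range of 1 and 2 SD. IFS1 averaged 4.56 ± 0.12 at 6 SD and 8.49 ± 0.57 at 0 SD (± standard deviation, n = 2 each), a log2 change of −3.93 ± 0.42 (SE, adjusted p = 0.00321 in limma), or 15.3-fold lower. Signals this low are hard to tell from background, so the fold is a value on the scale of these arrays only.

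IFS2 (Gma.2308.1.S1_s_at) moved the other way. Its log2 values were 7.23 and 7.38 (0 SD), 7.41 and 7.52 (1 SD), 7.36 and 7.53 (2 SD), 8.44 and 8.63 (4 SD) and 9.80 and 9.64 (6 SD). Both 4 SD arrays lay above every earlier array, and both 6 SD arrays above those of 4 SD. IFS2 averaged 9.72 ± 0.12 at 6 SD and 7.31 ± 0.10 at 0 SD, which is a log2 change of 2.41 ± 0.14 (adjusted p = 0.000321, limma), or 5.33-fold higher. At 4 SD the change against 0 SD was 1.23 ± 0.14 (adjusted p = 0.0292), and from 4 SD onwards it gained a further 1.18 ± 0.14 at 6 SD (adjusted p = 0.0229 for 6 SD against 4 SD). The call of this last step was lost without any single array of 1 or 4 SD, without the second 6 SD array and with array weights (adjusted p up to 0.238). For IFS1 the same steps were −1.41 ± 0.42 at 4 SD against 0 SD (adjusted p = 0.519) and −2.52 ± 0.42 at 6 SD against 4 SD (adjusted p = 0.0542, and 0.0472 in the fit to all probe sets).

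Both calls at 6 SD against 0 SD held under all 17 alternatives that were run, with adjusted p-values of at most 0.0297 for IFS1 and 0.00559 for IFS2. The call of IFS2 at 4 SD was less firm. It was lost on leaving out any single array of 0, 1, 2 or 4 SD and under an intensity trend with a robust prior, with an adjusted p of up to 0.327, although its log2 change stayed between 1.14 and 1.32.

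The difference between the genes within each array, which a shift common to the whole array does not alter, averaged 1.18 ± 0.68 (0 SD), 0.35 ± 0.17 (1 SD), 0.31 ± 0.28 (2 SD), −1.45 ± 1.07 (4 SD) and −5.16 ± 0.00097 (6 SD), as IFS1 minus IFS2 on the log2 scale (± standard deviation, n = 2 each). The offset at any single time has no meaning across different probe sets, and only its change is of interest. Both 4 SD arrays had a lower difference than any earlier array, and both 6 SD arrays a lower one still. The change at 6 SD against 0 SD was −6.35. An exact permutation test over all 945 ways to group the 10 arrays into 5 pairs gave p = 0.00317 for the 5 time points (F = 37.9, smallest possible p = 0.00106), for a pair of genes that was singled out with earlier results of these data known.

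**Figure D3:**
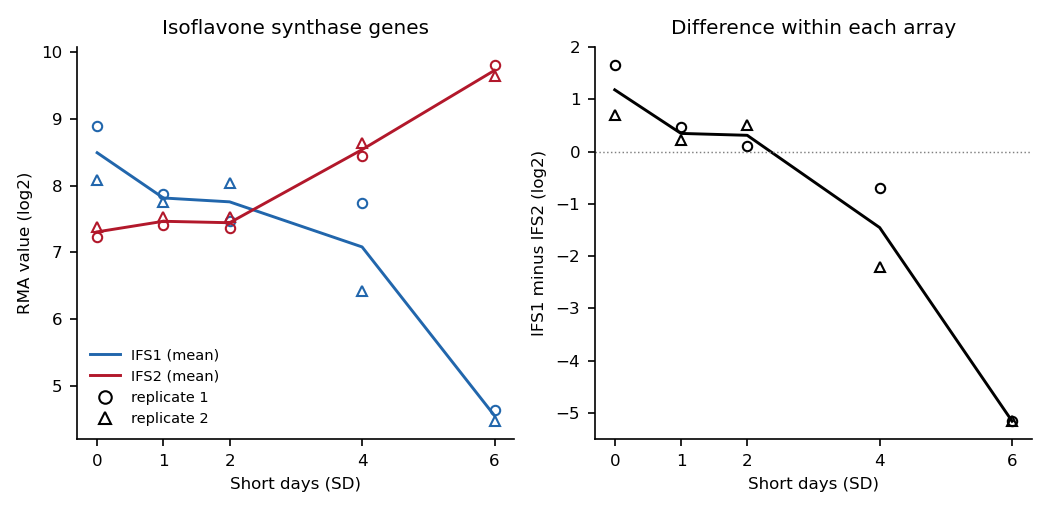
Left, log2 values of IFS1 (blue) and IFS2 (red) on each array against the number of short days, with lines through the means of the 2 replicates. Right, IFS1 minus IFS2 within each array. The difference averages 0.31 after 2 SD and −5.16 after 6 SD.

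The names of this pair need care. The RefSeq table (assembly Glycine_max_v4.0) lists IFS2 among the synonyms of IFS1 and IFS1 among the synonyms of IFS2, so the names in other sources may be exchanged. The genes lie on different chromosomes. Both probe sets carry the _s_at ending, so each may also pick up transcripts of close copies, and probe sequences were not used here to separate them.

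The later isoflavonoid enzymes did not follow IFS1. HIDH encodes 2-hydroxyisoflavanone dehydratase, which takes water from the product of IFS and so completes the isoflavone. Its 4 probe sets had log2 changes of 0.33 to 0.52 at 6 SD against 0 SD, and 0 passed the test (adjusted p = 0.0872 to 0.528). The nearest to the threshold, GmaAffx.92722.1.S1_at, had 9.90 and 9.65 at 6 SD against 9.37 and 9.17 at 0 SD, with no overlap.

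Isoflavone reductase (IFR) acts further on, in the synthesis of the pterocarpan phytoalexins of legumes. The IFR2 probe set Gma.1950.1.S1_at had log2 values of 11.51 and 11.56 (0 SD), 11.08 and 11.21 (1 SD), 11.24 and 10.99 (2 SD), 12.02 and 11.77 (4 SD) and 12.01 and 11.92 (6 SD). The arrays of 1 and 2 SD lay below both 0 SD arrays, and those of 4 and 6 SD above them. The trend over time passed (adjusted p = 0.0120, limma), while the change at 6 SD against 0 SD was 0.43 ± 0.14 (adjusted p = 0.104). Without the first 1 SD array, or with a quadratic trend, it did not pass (adjusted p up to 0.143). The other IFR2 probe sets had log2 changes of 0.31 and 0.34 at 6 SD against 0 SD and did not pass. IFR and IFR1, genes with 1 other gene between them in RefSeq, were dim, and the means of their 6 probe sets over all arrays were 3.73 to 4.99. Over the isoflavonoid branch 8 of 9 tested probe sets had a higher mean at 6 SD than that of 0 SD. Of all 20366 tested probe sets 7310 had. The 9 report few genes, with 4 probe sets for HIDH and 3 for IFR2, and are not independent. Their median log2 change was 0.41, but IFS2 alone passed among the 8.

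At the chalcone steps more probe sets fell than rose. Of 31 probe sets for CHS, CHR and CHI, 8 were tested, and at 6 SD 1 rose (3.67% of all tested) and 4 fell (2.79% of all tested) against 0 SD. In their means 7 of the 8 were lower, as were 13056 of all 20366 tested probe sets, and their median log2 change was −0.62 beside the −0.13 of all. CHS8, a chalcone synthase gene known in soybean for its part in isoflavonoid synthesis in seeds, had log2 values of 6.85 and 6.60 at 6 SD against 8.06 and 7.54 at 0 SD in probe set Gma.4300.3.S1_s_at. Both 6 SD arrays lay below every array of the other times, whose lowest was 6.96. The log2 change was −1.08 ± 0.23 (adjusted p = 0.0341, limma), and the call was lost without the first 0 SD array, either 1 SD array or the second 6 SD array (adjusted p up to 0.171).

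A second CHS8 probe set, Gma.4300.1.S1_s_at, fell below the filter and had 6.17 and 5.78 at 6 SD against 7.58 and 7.25 at 0 SD. Its log2 change was −1.44 ± 0.19 (adjusted p = 0.00699 in the fit to all probe sets), and of 16 alternatives only the omission of the first 0 SD array ended the call (adjusted p = 0.0610). The other CHS8 probe sets had −0.86, −0.85 and −0.01 and did not pass, the last of them near 4.6 throughout. CHS1, the other chalcone synthase symbol on the array, was dim in all its 7 probe sets, whose means were 3.52 to 5.10. All 7 changed by −0.23 to 0.10 at 6 SD against 0 SD.

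Of the chalcone reductase genes, CHR5 (GmaAffx.92851.1.S1_s_at) fell. It had log2 values of 7.90 and 7.62 (0 SD), 7.23 and 7.47 (1 SD), 6.73 and 7.13 (2 SD), 7.14 and 6.81 (4 SD) and 6.16 and 6.78 (6 SD). All 8 chamber arrays lay below both 0 SD arrays, and 6 SD overlapped with 2 SD. The log2 change at 6 SD against 0 SD was −1.29 ± 0.24 (adjusted p = 0.0216, limma), lost without either 0 SD array (adjusted p up to 0.126). CHR1 showed a split between replicates. Its probe set Gma.5529.1.S1_at had 9.11 on the first and 6.97 on the second 6 SD array, against 8.64 and 8.35 at 0 SD, so the 6 SD replicates fell on either side of all other arrays. CHR4 had 8.06 and 7.49 at 6 SD against 8.17 and 8.46 at 0 SD and did not pass (log2 change −0.54, adjusted p = 0.132). CHR3 was dim, with a mean of 3.90.

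The genes with CHI symbols differed among themselves. They were taken by symbol, and whether the product of each is an active chalcone isomerase was not examined. CHI1A (Gma.15492.1.S1_s_at) had log2 values of 9.83 and 9.94 (0 SD), 9.25 and 9.30 (1 SD), 9.02 and 9.19 (2 SD), 9.31 and 9.39 (4 SD) and 9.23 and 9.17 (6 SD). All 8 chamber arrays lay in a narrow band below both 0 SD arrays, and the mean log2 change was already −0.61 ± 0.12 at 1 SD (adjusted p = 0.149). At 6 SD it was −0.69 ± 0.12 (adjusted p = 0.0176, limma), lost without either 0 SD array or the second 6 SD array (adjusted p up to 0.0891).

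CHI2-A (Gma.3562.1.S1_at) fell later, with 9.01 and 8.80 (0 SD), 8.93 and 9.34 (1 SD), 8.96 and 9.00 (2 SD), 8.32 and 8.38 (4 SD) and 8.22 and 8.20 (6 SD). The arrays of 4 and 6 SD lay below all those of 0, 1 and 2 SD. The log2 change at 6 SD against 0 SD was −0.69 ± 0.16 (adjusted p = 0.0396), and it was lost in 9 of 17 alternatives, among them the omission of any single array of 0, 2 or 4 SD or of the second 6 SD array (adjusted p up to 0.194). The trend over time (adjusted p = 0.0138) held in 18 of 19 alternatives, the exception being time taken as a factor (adjusted p = 0.0540).

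CHI4A was the gene with a CHI symbol that rose. Probe set GmaAffx.93494.1.A1_s_at had 9.58 and 9.55 at 6 SD against 8.95 and 8.96 at 0 SD, a log2 change of 0.61 ± 0.15 (adjusted p = 0.0490, limma), so close to the threshold that the call was lost in 13 of 17 alternatives. These included leaving out any single array. A second and dimmer probe set, GmaAffx.93494.1.S1_at, had 6.31 and 6.25 at 6 SD against 5.62 and 5.32 at 0 SD. Its log2 change was 0.81 ± 0.14 (adjusted p = 0.0191 in the fit to all probe sets), lost without either 0 SD array (adjusted p up to 0.104). In both probe sets the 6 SD arrays lay above all 8 others.

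CHI1A, CHI1B1 and CHI2-A follow each other with 0 protein-coding genes between them in RefSeq. CHI1A and CHI2-A had the same log2 change of −0.69 at 6 SD, but CHI1A was lower from 1 SD onwards and CHI2-A only from 4 SD. CHI1B1, between the others in that order, was below the filter in all its probe sets. A probe set shared by CHI1B1 and CHI1B2, Gma.2826.1.S1_s_at, had 5.61 on the first and 7.40 on the second 6 SD array, against 6.47 and 5.81 at 0 SD. As with CHR1, the second 6 SD array stood apart there. CHI3A1 was dim in its 4 probe sets, with means of 3.91 to 4.98.

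**Figure D4:**
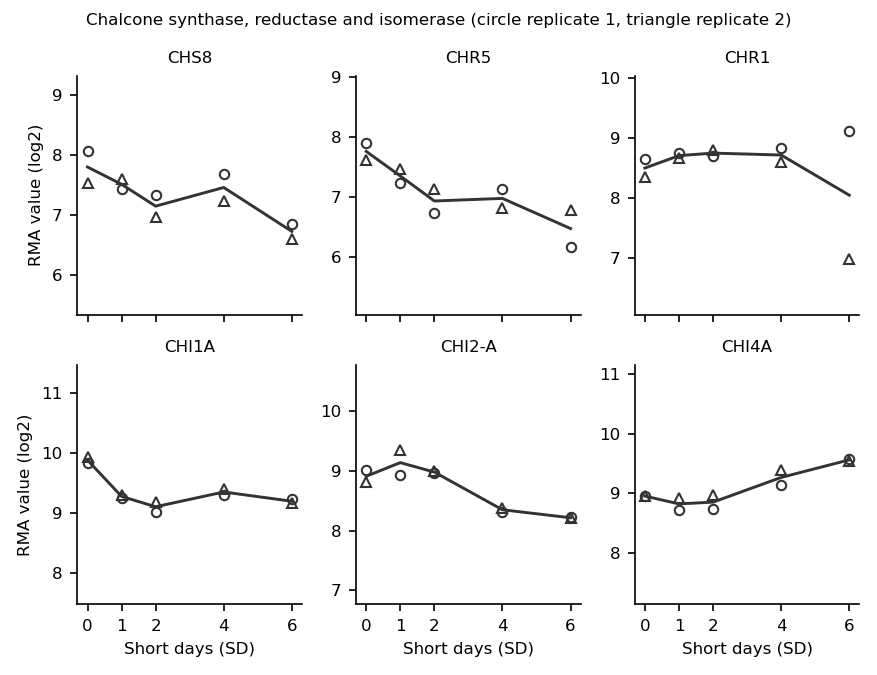
log2 values of CHS8, CHR5, CHR1, CHI1A, CHI2-A and CHI4A on each array against the number of short days, with lines through the means and the same span of 4 log2 units in every panel. CHI1A drops after 0 SD, CHI2-A after 2 SD and CHI4A is highest at 6 SD, while the 6 SD replicates of CHR1 lie at 9.11 and 6.97.

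On the branch to anthocyanins and proanthocyanidins, DFR2, ANS2, ANR1 and LAR1 fell at 6 SD, while F3H, FLS1, DFR1 and UGT78K1 did not pass. Of its 10 probe sets 6 were tested, and 0 rose (3.67% of all tested) and 1, LAR1, fell (2.79% of all tested). Their median log2 change was −0.10, near the −0.13 of all tested probe sets. The calls of DFR2, ANS2 and ANR1 come from the fit to all probe sets. Dihydroflavonol 4-reductase (DFR) makes leucoanthocyanidins. DFR2 (GmaAffx.80720.1.S1_at) had log2 values of 7.02 and 7.02 (0 SD), 6.83 and 7.08 (1 SD), 6.94 and 6.78 (2 SD), 6.56 and 6.40 (4 SD) and 5.07 and 4.67 (6 SD). The 4 SD arrays lay just below all earlier ones, and the 6 SD arrays far below, under the 25th percentile of their arrays. DFR2 was under the filter, and in the fit to all probe sets its log2 change was −2.15 ± 0.17 at 6 SD against 0 SD (adjusted p = 0.00104, limma) and −1.61 ± 0.17 at 6 SD against 4 SD (adjusted p = 0.0106). The call against 0 SD held in all 16 alternatives. That against 4 SD was lost without the first 4 SD array (adjusted p = 0.150). In this fit 3 of the 71 passed at 6 SD against 4 SD, IFS2 upward and IFS1 and DFR2 downward, where 0.537% of all probe sets passed.

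Anthocyanidin synthase (ANS) oxidises leucoanthocyanidins to the coloured anthocyanidins. ANS2 (Gma.1163.1.S1_at) had 6.10 and 5.88 at 6 SD against 7.11 and 7.06 at 0 SD, and the arrays of 1, 2 and 4 SD had 6.67 to 7.07. Both 6 SD arrays lay below all others. Its log2 change was −1.09 ± 0.16 (adjusted p = 0.00986 in the fit to all probe sets), lost without either 0 SD array (adjusted p up to 0.0763).

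Anthocyanidin reductase (ANR) and leucoanthocyanidin reductase (LAR) make the flavan-3-ols from which proanthocyanidins are built. LAR1 (GmaAffx.34868.1.A1_at) had log2 values of 8.18 and 8.27 (0 SD), 8.15 and 8.22 (1 SD), 8.06 and 8.37 (2 SD), 7.60 and 8.02 (4 SD) and 7.39 and 6.67 (6 SD). The levels of 0, 1 and 2 SD overlapped, and the 6 SD arrays lay below all others. The log2 change at 6 SD against 0 SD was −1.19 ± 0.25 (adjusted p = 0.0282, limma), lost without any single array of 0 or 1 SD or the second 6 SD array (adjusted p up to 0.121). ANR1 (GmaAffx.43987.1.S1_at) was dim, with 4.41 and 4.21 at 6 SD against 5.12 and 5.70 at 0 SD. Its log2 change was −1.10 ± 0.21 (adjusted p = 0.0264 in the fit to all probe sets), lost without the second 0 SD array, either 1 SD array or the second 6 SD array (adjusted p up to 0.119). Both 6 SD arrays lay below all others, and both lay under the 25th percentile of their arrays.

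DFR1, the other DFR gene, had 4.41 and 4.75 at 6 SD against 5.27 and 5.51 at 0 SD and did not pass (log2 change −0.81 ± 0.21, adjusted p = 0.0667). The lower values of ANR1 and DFR1 at 6 SD are near background, so their changes may be understated.

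F3H stands at the head of this branch and makes dihydroflavonols. Its 2 probe sets stayed near their 0 SD values, with log2 changes of −0.20 and 0.01 at 6 SD against 0 SD (adjusted p = 0.413 and 0.981). Flavonol synthase (FLS) turns dihydroflavonols into flavonols. FLS1 (GmaAffx.3256.1.S1_at) had log2 values of 9.17 and 9.24 (0 SD), 8.25 and 8.92 (1 SD), 8.34 and 8.42 (2 SD), 8.86 and 9.03 (4 SD) and 8.94 and 9.15 (6 SD). The arrays of 1 and 2 SD lay below both 0 SD arrays, but the 2 SD change of −0.82 ± 0.21 missed the threshold (adjusted p = 0.289). The second FLS1 probe set had −0.77 ± 0.15 at 2 SD (adjusted p = 0.174). At 6 SD the FLS1 changes were −0.16 and −0.04 (adjusted p = 0.656 and 0.901).

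UGT78K1 encodes a glucosyltransferase that adds glucose to anthocyanidins in the soybean seed coat. It had 8.05 and 8.79 at 6 SD against 8.03 and 8.24 at 0 SD, and the change of 0.28 ± 0.26 did not pass (adjusted p = 0.505). Over the 6 tested probe sets of the branch, 0 were higher at 1, 2 or 4 SD than at 0 SD in their means, and 2 were at 6 SD. Lower means also prevailed among all 20366 tested probe sets. There 11816, 10872 and 10775 were lower after 1, 2 and 4 SD, respectively. The smallest log2 changes among the 6 were −0.04, −0.01 and −0.05 in the same order. F3H and FLS1 have 2 probe sets each, so the 6 are not independent. Each comparison with 0 SD also uses the same 0 SD arrays.

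**Figure D5:**
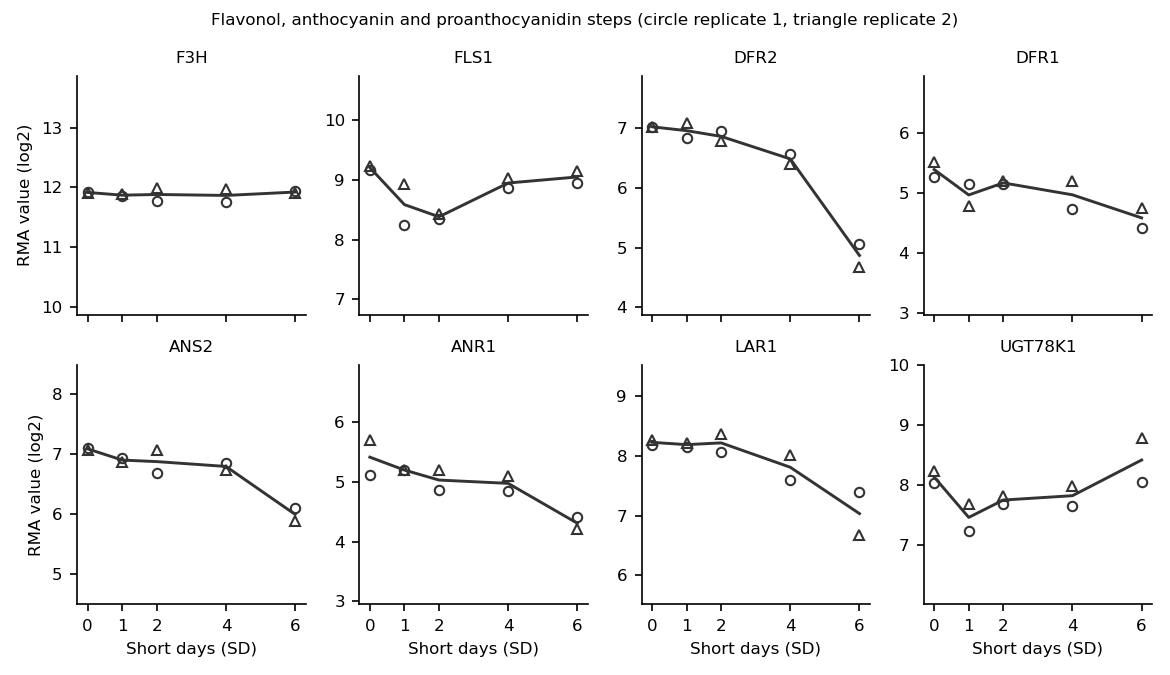
log2 values of F3H, FLS1, DFR2, DFR1, ANS2, ANR1, LAR1 and UGT78K1 on each array against the number of short days, with lines through the means and the same span of 4 log2 units in every panel. DFR2, ANS2, ANR1 and LAR1 are lowest at 6 SD, while F3H and FLS1 end near their 0 SD values.

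The entry steps, shared with lignin synthesis, did not pass in any comparison. The PAL2.1 probe set GmaAffx.29412.1.S1_s_at had 13.00 and 11.94 at 6 SD against 12.79 and 12.25 at 0 SD. The replicates at 6 SD enclosed those at 0 SD. C4H was the nearest to a change, with 10.14 and 9.86 at 6 SD against 9.47 and 9.19 at 0 SD in probe set Gma.3881.1.S1_s_at, a log2 change of 0.67 ± 0.19 (adjusted p = 0.0736). The second C4H probe set had 0.53 ± 0.17 (adjusted p = 0.100). Of 8 probe sets for 4CL, 2 were tested, for the genes 4CL and 4CL2, with log2 changes of −0.23 (adjusted p = 0.428) and 0.45 (adjusted p = 0.190). The median log2 change of the 7 tested entry probe sets was 0.05.

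Since every chamber sample differs from 0 SD in growth conditions, 6 SD was also set against 1 SD. In this comparison 3 of the 30 rose (background 1.69%), namely IFS2, CHI4A and the IFR2 probe set described above, and 2 fell (background 0.741%), IFS1 and CHI2-A. IFS1 had a log2 change of −3.25 ± 0.42 (adjusted p = 0.00926, limma) and IFS2 of 2.26 ± 0.14 (adjusted p = 0.000615). In the fit to all probe sets 2 of the 71 rose (2.82%, background 1.4%), so not all 3 of these rises held there. In that fit 4 fell (5.63%, background 0.505%), with DFR2 (−2.09 ± 0.17, adjusted p = 0.00160) and ANS2 (−0.91 ± 0.16, adjusted p = 0.0311) added. CHS8, CHR5, CHI1A, LAR1 and ANR1 did not pass against 1 SD.

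Other genes of the pathway and its regulators, outside the symbol rule, were held by 32 further probe sets, of which 22 were tested. At 6 SD 3 rose (3.67% of all tested) and 1 fell (2.79% of all tested) against 0 SD, with a median log2 change of −0.19 beside the −0.13 of all tested probe sets. The 3 that rose overlap in the genes they report, MYB176 and its close relative MYB175, and are not independent. MYB176 is a soybean transcription factor known to bind the CHS8 promoter and to regulate isoflavonoid synthesis in roots. Probe set Gma.593.1.S1_x_at, annotated to MYB176 alone, had 10.02 and 10.32 (0 SD), 10.71 and 10.93 (1 SD), 10.79 and 10.59 (2 SD), 10.93 and 10.94 (4 SD) and 11.68 and 12.16 (6 SD). All 8 chamber arrays lay above both 0 SD arrays, and the log2 change at 6 SD was 1.75 ± 0.19 (adjusted p = 0.00332, limma). The other probe sets, annotated to both genes, had changes of 2.03 and 2.04. Genes outside the symbol rule were not run through the alternatives, so how firm their calls are was not tested.

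UGT708D1, a glucosyltransferase that attaches glucose to flavanones by a carbon bond, was the gene that fell, with 8.49 and 8.20 at 6 SD against 9.14 and 9.12 at 0 SD (log2 change −0.78 ± 0.15, adjusted p = 0.0240). The 14-3-3 proteins of the SGF14 group, some of which bind MYB176, did not pass at 6 SD in any of their probe sets, and IF7MaT, which adds a malonyl group to isoflavone glucosides, had −0.88 and −0.66 in its tested probe sets (adjusted p = 0.115 and 0.0899).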

How the data were processed

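Total RNA of dissected SAMs (3 µg per array) was hybridized to 10 arrays. The authors deposited RMA values on the log2 scale. RMA corrects background, makes the arrays share a distribution and summarises the probes of a set, so that weak signals are compressed. No detection calls were used. The 105 Affymetrix control and 48 rRNA entries were left out. Symbols came from the platform annotation, and all 36 gene identifiers were found in the RefSeq table. The single chitinase and the other lists were chosen by symbol, with no gene description used here. All members, lists and comparisons were chosen with earlier results of these data known.

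Time point means were fitted with limma 3.58.1 in R 4.3.3, with 5 residual degrees of freedom per probe set and a shared prior. The median SE of a log2 change was 0.18, and 2 arrays per time point limit the precision. For the time course, limma tested the 3 terms of a cubic trend together. The fit was tested on simulated data. Named genes are IFS1 and IFS2, every member that passed in a comparison with 0 SD, between neighbouring times or in the time course, and at least 1 member per enzyme. Alternatives were no filter, a filter at the 25th percentile, centring on a common median, a further quantile normalization, array weights, a robust prior with an intensity trend, a replicate block, 1 SD as the baseline, a quadratic trend or time as a factor, and the omission of single arrays. The lone array left at a time point was then assumed to vary like the others.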

Additional observations from a re-analysis of the deposited data

How the results depend on the processing

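At 1 SD against 0 SD array weights gave 1 changed member in place of 0, and leaving out an array gave 0 to 0. At 2 SD leaving out an array gave 0 to 1. At 4 SD the count of 1 became 0 with an intensity trend and robust prior and with 1 SD in place of 0 SD, and leaving out an array gave 0 to 1. At 6 SD the count of 8 became 2 with array weights and 5 with 1 SD in place of 0 SD, and leaving out an array gave 2 to 10. At 6 SD against 4 SD the count of 1 became 3 with no filter, 3 with a filter at the 25th percentile, 2 with a common median, 0 with array weights and 2 with the replicate block, and leaving out an array gave 0 to 7, the 7 without the first 6 SD array. The count at 4 SD against 2 SD was 0 in every alternative. For the time course the count of 7 became 3 with time as a factor, and leaving out an array gave 3 to 12, the 12 without the first 6 SD array. The change of IFS1 minus IFS2 at 6 SD was −6.82 to −5.87 on leaving out an array and −6.50 after a further quantile normalization. The cause of these shifts was not tested.

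The labels do not say that a replicate number marks a shared batch, and the numbers were not used as pairs. Deviations of same-numbered arrays from their means correlated at 0.19 to 0.62 among 0, 2, 4 and 6 SD. Those of 1 SD had correlations of −0.37 to −0.07 with each other time point. With the replicate block the counts were 8 at 6 SD against 0 SD and 9 over the time course, and an exact permutation test of IFS1 minus IFS2 within each replicate number gave p = 0.0167 (120 arrangements, smallest p = 0.00833). Among members that passed a comparison, no log2 change reversed its direction in any alternative. Over all settings, 101 of the results of members that passed a test lost the call and 352 kept it. These counts include the time course tests, for which only the adjusted p was followed and not a direction. Members that did not pass, and all genes outside the symbol rule, were not run through the alternatives by name. With 2 arrays per time point, changes well above their SE could miss the threshold, as those of CHI1A at 1 SD and FLS1 at 2 SD did. Signals under the 25th percentile give little information on how far a gene fell.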

Other observations

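A probe set outside the symbol rule, Gma.5863.1.S1_at (LOC547659), is annotated in the study as an isoflavone reductase and was chosen after its values were seen. It had log2 values of 7.67 and 8.69 at 6 SD against 4.61 and 4.91 at 0 SD, and the other 6 arrays lay at 4.61 to 5.08. The log2 change at 6 SD was 3.42 ± 0.31 (adjusted p = 0.00169, limma), and 3.24 ± 0.31 at 6 SD against 4 SD (adjusted p = 0.0105). It stayed near background until 4 SD, whereas IFS2 was already higher at 4 SD than at any earlier time.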
